A study of Capra hircus with 12 samples.

Results

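Mammary gland of lactating female dairy goats was compared between a high and a middle dose of infused glucose. The comparison took the 4 libraries labelled as high dose and the 4 labelled as middle dose, 8 of the 12 RNA-seq libraries of the series, over the 15810 genes listed in all tables. The other 4 libraries were of the low dose. They served only to estimate the spread between libraries of a dose and are quoted beside some results. All 12 libraries came from biopsies of glucose-infused, lactating glands, and no library of an uninfused gland was analysed here. The sources used here give no numeric dose, duration of infusion or age of the goats. Whether the replicates of a dose were taken from different goats is not stated in the labels. The p-values therefore reflect only how far these libraries differ among themselves, a spread that may be technical. The design text gives the question as how the gland's transcripts respond to the dose of glucose.

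The alveolar epithelium of the lactating gland takes up glucose through facilitative transporters and turns part of it into UDP-galactose and lactose, the sugar that draws water into milk. Glucose also feeds glycolysis, NADPH supply and the glycerol backbone of milk fat. The same cells make caseins and whey proteins in bulk, which loads the endoplasmic reticulum and calls on amino acid transporters. Around the alveoli lie contractile myoepithelial cells, capillaries, fibroblasts, fat cells and immune cells. In bulk tissue, fewer cells of a type and less RNA per cell cannot be told apart.

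Middle-dose replicate 3 stood apart from the other middle-dose libraries. The 9 measured milk protein genes took 52.0, 57.7, 3.44 and 59.0% of the counts in middle-dose replicates 1 to 4, and 7.48, 42.1, 8.83 and 21.3% in high-dose replicates 1 to 4. All values for a dose are given below in this order of replicates. The log2 share was lower at the high dose by a mean difference of -0.84 (exact permutation test, two-sided, p = 0.429, 0.429 adjusted over 3 values per library), and by -1.85 without middle-dose replicate 3 (exact permutation p = 0.0571). The 70 arrangements of 4 against 4 libraries allow no p below 0.0286. Total counts were 9555072 to 12716883 over the 12 libraries, and the totals of the 8 libraries compared did not pass a test between the doses (exact permutation p = 0.171, adjusted 0.257). Genes with any read numbered 14862 ± 304.5 (SD, n = 4) at the high dose and 14461 ± 372.3 (n = 4) at the middle dose (exact permutation p = 0.143, adjusted 0.257). On the first principal component of the 8 libraries, which held 48.3% of the variance, middle-dose replicate 3 lay with high-dose replicates 1 and 3, and the other middle-dose libraries lay at the opposite end with high-dose replicate 2 nearest to them. No label sets this library apart, and results are therefore given with and without it.

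The tissue label was met by the markers. EHF and CDH1, an epithelial transcription factor and an epithelial adhesion protein, were the luminal markers with the most counts. CDH1 held 474.4, 263.1, 222.8 and 441.0 CPM (counts scaled to a common library size, corrected for composition) at the high dose and 304.8, 277.3, 332.2 and 344.5 CPM at the middle dose. CSN2, the beta-casein of milk, held 20811, 310595, 39561 and 83027 CPM at the high dose and 449652, 608673, 10326 and 649149 CPM at the middle dose. Milk transcripts were thus present in every library, and the 2 doses overlapped. None of the measured markers of any cell type was at 0 in all libraries compared. Of 10 erythroid markers listed, 4 were measured (ALAS2, SLC4A1, AHSP and HEMGN), none of them a haemoglobin gene. They summed to 0.677 to 1.42 CPM at the high dose and 0.52 to 1.22 CPM at the middle dose. None of the 4 passed the filter on low counts, and they do not show how much blood the biopsies held.

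**Figure D1:**
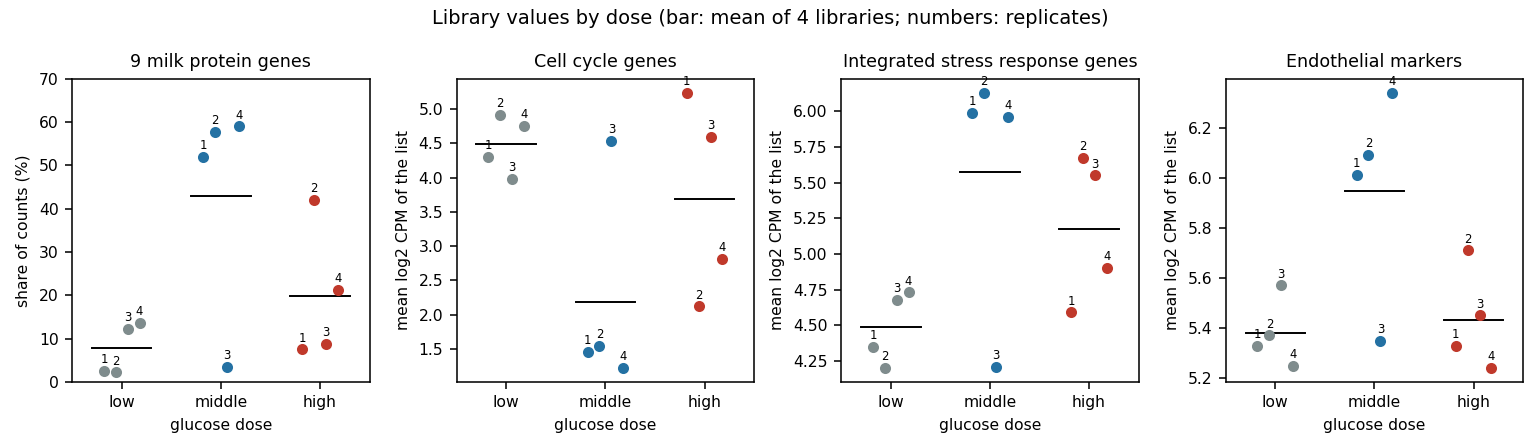
Share of counts of the 9 milk protein genes (percent) and mean log2 CPM of the cell cycle, integrated stress response and endothelial marker lists, for each library by dose. Points are libraries numbered by replicate and bars are means of 4. Middle-dose replicate 3, with 3.44% milk protein counts, sits apart from replicates 1, 2 and 4 in all 4 panels.

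No gene passed an adjusted p of 0.05 with all libraries. edgeR's quasi-likelihood test called 0 of 13624 genes (0.0% higher and 0.0% lower at the high dose), and its smallest adjusted p was 0.196. At an unadjusted p under 0.05 there were 2029 genes (14.9%), of which 1021 (7.49%) had higher and 1008 (7.4%) lower estimates at the high dose. That number was 1305 without middle-dose replicate 1, 1159 without middle-dose replicate 4 and 3655 without middle-dose replicate 3. The libraries of the 2 doses did not overlap for 809 genes (5.94%), 453 (3.33%) with the high dose above and 356 (2.61%) below. Estimates were higher at the high dose for 52.8% of all genes, and the median log2 difference of all genes was 0.03. Scaling by library size alone moved that median to 0.56 and made nearly all such differences point upward: 298 genes then lay wholly above and 22 wholly below, and 1991 against 54 were at an unadjusted p under 0.05.

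Without middle-dose replicate 3, edgeR called 505 of 13797 genes (3.66%), 235 (1.7%) higher and 270 (1.96%) lower at the high dose. This library lay nearer the high-dose mean than that of the other middle-dose libraries for 441 of the 504 called genes also tested with it. edgeR called those genes only with the library left out, which favours genes where it departs from its dose. That number is therefore no support for a likeness to the high dose, and the same number over all genes is not given here. The library was singled out after its values were seen, so adjusted p-values without it, here and below, are no independent support. Other methods on all 12 libraries also made calls. The DESeq2 test called 272 genes (2.0%), 126 (0.925%) higher and 146 (1.07%) lower. By limma voom with quality weights, which gives less weight to libraries that vary more, 334 (2.45%) were called, 149 (1.09%) higher and 185 (1.36%) lower. Voom gave middle-dose replicate 3 the lowest weight of the 12 libraries (0.323), against 2.08, 1.15 and 3.18 for middle-dose replicates 1, 2 and 4. The calls shared by all 3 numbered 147. DESeq2 shared 173 with the fit without the library, 63.6% of the DESeq2 calls and 34.3% of the others. Leaving out any other single library gave 0 calls, except low-dose replicate 4, without which F3 alone was called. Milk protein share set middle-dose replicate 3 apart. The high-minus-middle difference in log2 share was -0.84 with all libraries and -1.85 without that library. It was -1.32 without high-dose replicate 2, where edgeR called 0 genes. The part of milk protein share in these counts was not tested.

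**Figure D2:**
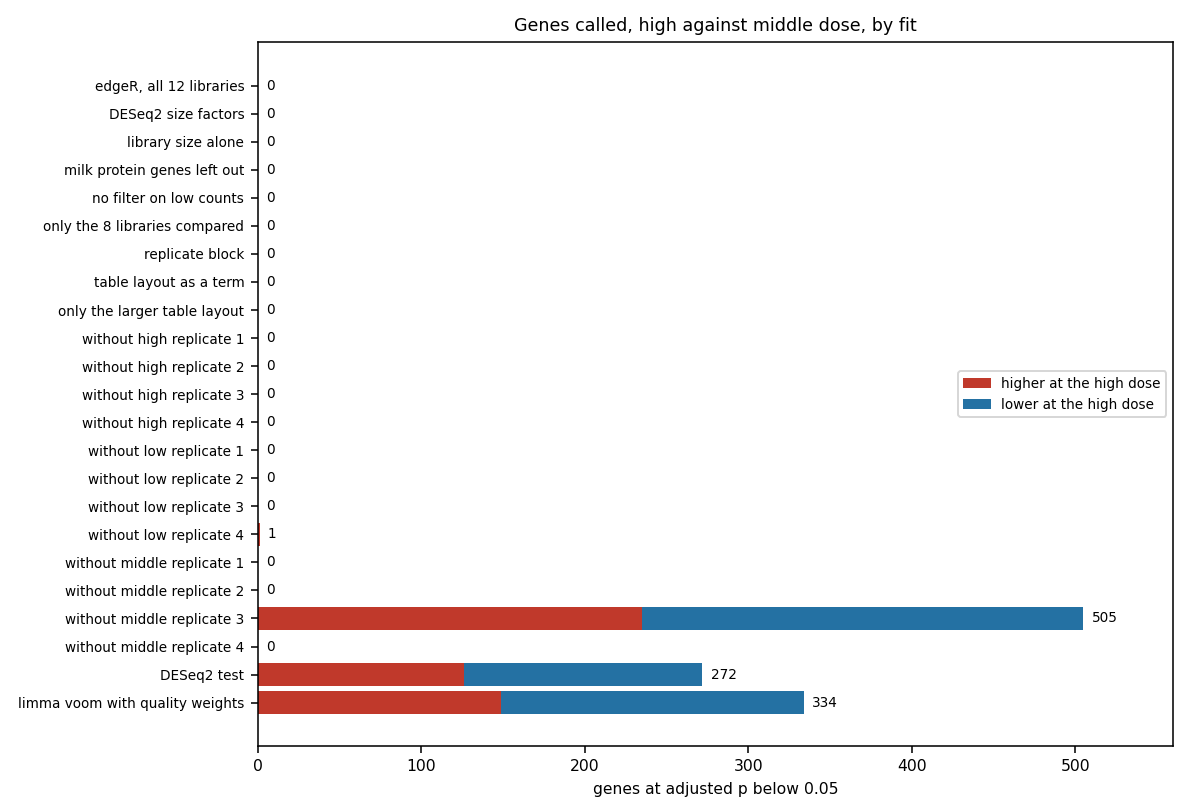
Number of genes at an adjusted p below 0.05 (horizontal axis) in each fit of the high against the middle dose, split by direction. Bars reach 505 without middle-dose replicate 3, 334 for limma voom with quality weights and 272 for the DESeq2 test, against 0 for the edgeR fit to all 12 libraries.

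The 24 genes named next were the 12 with the smallest p in each direction, taken from named genes whose mean log2 CPM was 1 or more. Each had an edgeR adjusted p of 0.196 with all libraries. All 24 were called by edgeR without middle-dose replicate 3, by DESeq2 and by limma voom with quality weights, which use the same libraries and are no independent support. For 23 of the 24 the doses did not overlap. The exception was CSDC2. All 24 kept their direction without each of the 12 libraries in turn and with library size alone. They also kept it within each of the 2 layouts in which the count tables came (2 high-dose against 3 middle-dose libraries, and 2 against 1). For the 23 genes without overlap, leaving out a library or taking 1 layout could hardly turn the sign. Those directions are therefore no added support.

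Among the genes higher at the high dose, F3 and CCL2 belong to tissue injury responses. F3, tissue factor, starts blood clotting (chromosome 3, 46576700 to 46586475, coordinates as deposited, on an unnamed build). It held 59.5, 98.3, 92.4 and 111.7 CPM at the high dose and 25.8, 24.6, 20 and 22.2 CPM at the middle dose. The lowest high-dose library was above the highest middle-dose library, and the log2 difference was 1.97 ± 0.30 (SE), or 1.90 ± 0.34 without middle-dose replicate 3 (edgeR adjusted p = 0.0242). CCL2, a chemokine that attracts monocytes (chromosome 19, 15256988 to 15259192), held 21.2, 14.6, 39.3 and 41.8 CPM against 1.94, 1.91, 6.95 and 4.48 CPM. Its log2 difference of 2.89 ± 0.52 was the largest of the 12 higher genes, and it was 3.43 ± 0.55 without middle-dose replicate 3 (edgeR adjusted p = 0.0199). TNFRSF12A, the receptor of the cytokine TWEAK, held 5.24, 9.40, 10.1 and 8.47 CPM against 2.08, 1.04, 1.10 and 1.22 CPM (log2 difference 2.60 ± 0.49). THOC6, a subunit of the complex that couples transcription to RNA export, is its neighbour on chromosome 25 (TNFRSF12A at 2449170 to 2451411, THOC6 at 2453073 to 2455900). THOC6 held 6.64, 9.14, 8.19 and 7.95 CPM against 3.19, 3.64, 4.31 and 4.07 CPM, a log2 difference of 1.06 ± 0.23. The sources used here do not say whether counting used strand.

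Several of the higher genes encode parts of the cytoskeleton or of epithelial surfaces. TUBB6, a beta-tubulin, held 32.7, 27.8, 48.8 and 27.0 CPM at the high dose and 14.2, 16.0, 13.3 and 15.1 CPM at the middle dose (log2 difference 1.22 ± 0.20). KRT14, a keratin of basal and myoepithelial cells, held 67.3, 44.2, 66.3 and 84.0 CPM against 17.4, 23.6, 34.6 and 13.0 CPM (1.55 ± 0.33). For both genes the doses did not overlap, and for KRT14 middle-dose replicate 3 was the highest of its dose. TAGLN2, an actin-binding protein, differed by 0.85 ± 0.18, with 126.2 to 207.6 CPM against 83.9 to 108.7 CPM. EPHA2, a receptor tyrosine kinase for ephrins of neighbouring cells, held 27.4, 27.9, 29.8 and 23.3 CPM against 12.1, 10.8, 18 and 13.2 CPM (1.00 ± 0.17). The high-dose libraries of EPHA2 lay close together, with a mean of 27.1 ± 2.77 CPM (SD, n = 4).

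The other higher genes have roles in signalling and transcription. KLF10, a zinc finger transcription factor known to respond to glucose and to TGF-beta, held 101.1, 114.2, 76.6 and 83.0 CPM at the high dose and 40.3, 32.4, 32.0 and 16.3 CPM at the middle dose. Its log2 difference was 1.63 ± 0.32 with all libraries and 1.65 ± 0.36 without middle-dose replicate 3 (edgeR adjusted p = 0.0394). RARRES1, a membrane protein gene induced by retinoic acid, differed by 1.74 ± 0.33 (12.5 to 41.2 CPM against 5.30 to 10 CPM). SYNJ2, an inositol phosphatase of membrane traffic, differed by 1.16 ± 0.21 (11.4 to 19.1 CPM against 6.67 to 7.75 CPM). YWHAZ, an adaptor that binds phosphorylated proteins, differed by 0.73 ± 0.16 (56.3 to 79.2 CPM against 34.6 to 48.3 CPM).

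Of the 12 lower genes with the smallest p, CSDC2, an RNA-binding cold shock domain protein, had the largest estimate (-2.84 ± 0.57; chromosome 5, 103800441 to 103814855). It held 22.3, 18.9, 10.1 and 11.3 CPM at the high dose and 104.6, 223.2, 18.5 and 104.1 CPM at the middle dose. Middle-dose replicate 3 lay within the high-dose range, and without it the difference was -3.20 ± 0.35 (edgeR adjusted p = 0.00507). STX19, a syntaxin of membrane fusion, held 7.43, 4.51, 1.73 and 7.95 CPM against 35.3, 25.5, 13.0 and 38.3 CPM (-2.36 ± 0.47). ASCC1, a subunit of a transcriptional coactivator complex (chromosome 28, 25972385 to 26087747), held 19.9, 25.2, 22.8 and 31.9 CPM against 52.5, 51.5, 41.3 and 54.6 CPM. It had the smallest p of the lower genes, with a log2 difference of -1.0 ± 0.16, or -1.08 ± 0.16 without middle-dose replicate 3 (edgeR adjusted p = 0.0153). UBXN7, a ubiquitin-binding cofactor of protein degradation, held 110.2, 122.9, 111.6 and 114.0 CPM against 230.1, 192.5, 162.9 and 218.6 CPM (-0.81 ± 0.14). FPGS, which adds glutamate to folate and keeps it in the cell, held 28.8, 35.4, 25.2 and 28.5 CPM against 54.7, 60.9, 48.2 and 64.8 CPM (-0.96 ± 0.17). For UBXN7 and FPGS, middle-dose replicate 3 was the lowest of its dose and still above every high-dose library.

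The remaining lower genes had no overlap between the doses either. DDR2, a receptor tyrosine kinase for collagen, held 34.5, 41.6, 29.2 and 38.1 CPM at the high dose and 71.0, 80.5, 45.9 and 75.8 CPM at the middle dose (log2 difference -0.93 ± 0.18). SDPR, a protein of caveolae, which are abundant in endothelium and fat cells, differed by -1.16 ± 0.22 (46.7 to 76.8 CPM against 96.8 to 194.4 CPM). ADRBK1, the kinase that desensitises beta-adrenergic receptors, differed by -0.70 ± 0.14, and ZSWIM8, a ubiquitin ligase adaptor, by -0.77 ± 0.15. PPP1R26, a regulator of protein phosphatase, held 22.7, 22.9, 12 and 20.6 CPM against 73.2, 36.2, 30.7 and 63.2 CPM (-1.37 ± 0.28). COMMD6 and C20H5orf28 differed by -0.92 ± 0.18 and -1.21 ± 0.22.

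The low-dose libraries, quoted for orientation, lay nearer to the high dose in mean log2 CPM for all 24 genes, against 62.6% of all genes and 69.9% of the genes at an unadjusted p under 0.05. In mean CPM without the log, TUBB6, EPHA2 and SYNJ2 lay nearer to the middle dose. F3 held 54.4, 36.1, 43.1 and 98.9 CPM at the low dose. CSDC2 held 11.3, 8.95, 13.7 and 14.8 CPM there, below or within its high-dose range. These positions were not tested.

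**Figure D3:**
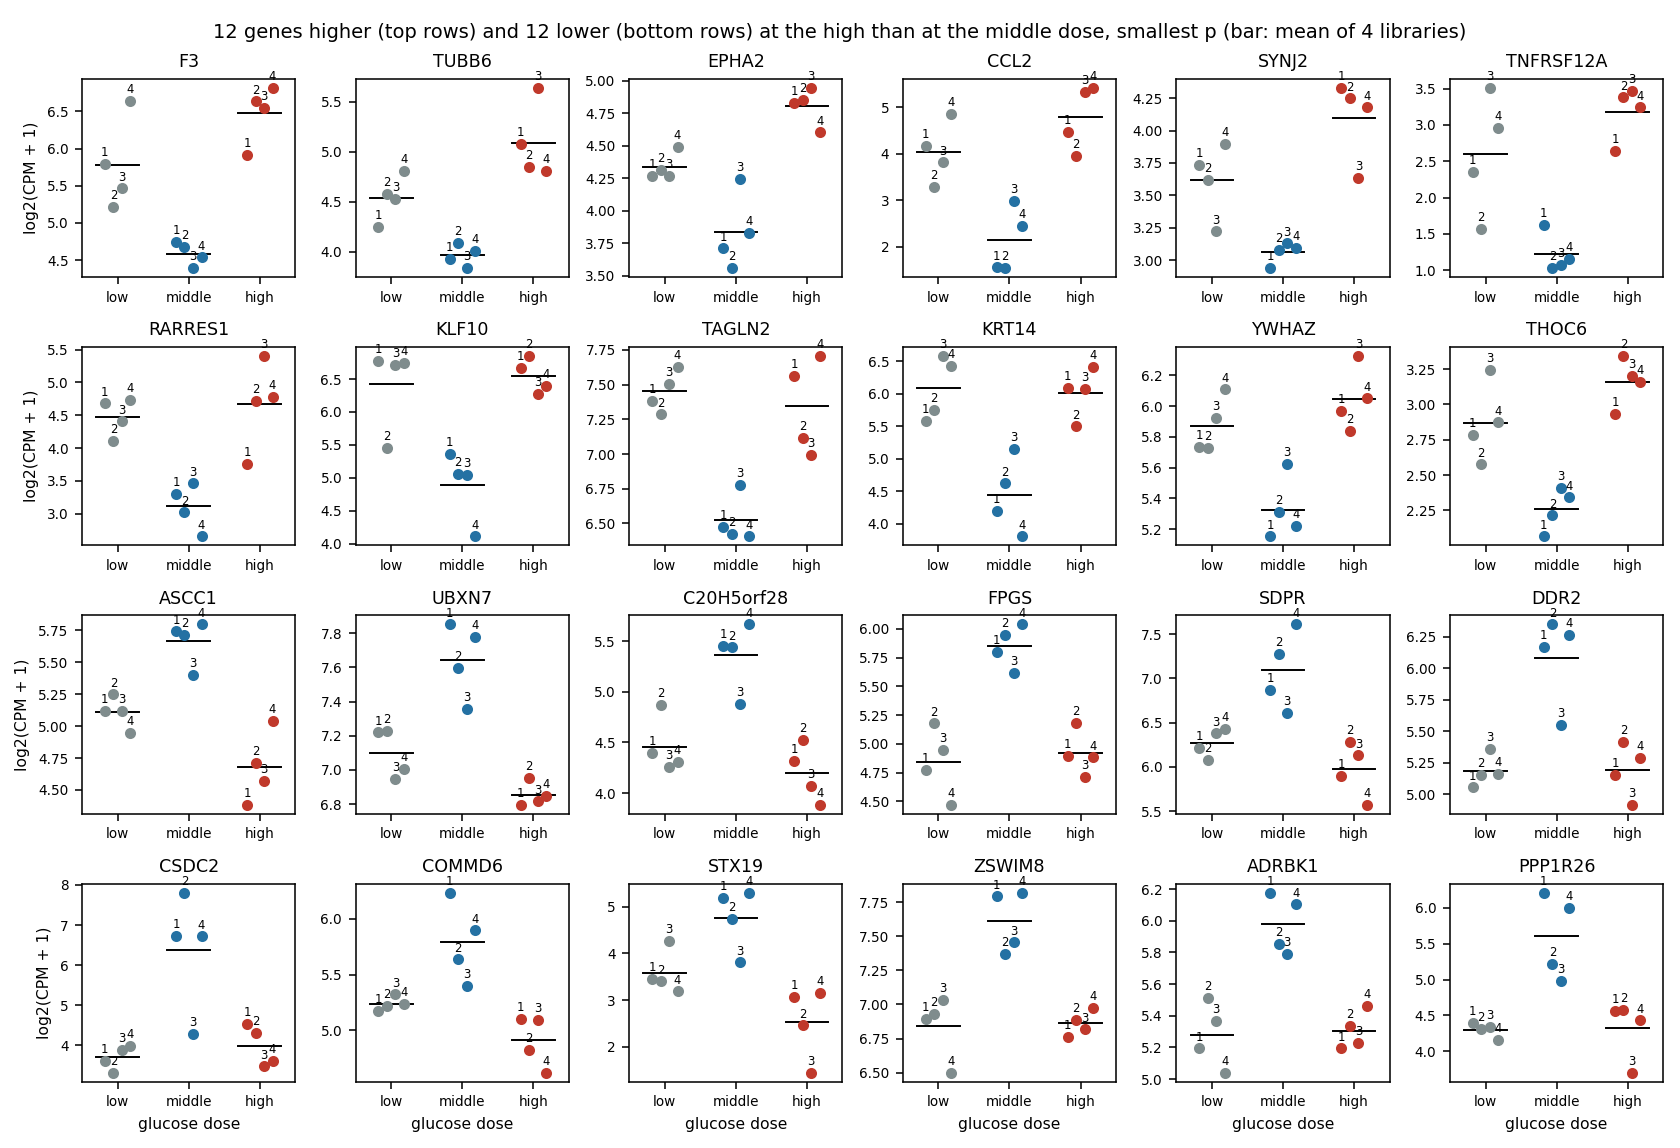
Level of the 24 genes in every library, as log2(CPM + 1), by dose, with the 12 genes higher at the high dose in the upper rows and the 12 lower ones in the lower rows. Points are libraries numbered by replicate and bars are means of 4. For 23 of the 24 genes the high-dose and middle-dose points do not overlap, and CSDC2 is the exception.

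Milk protein genes had lower estimates at the high dose with a wide spread between libraries. Of the 9 genes, 8 were lower and 1 higher, with a median log2 difference of -1.96 (all genes 0.03), -2.37 without middle-dose replicate 3 and -3.17 without high-dose replicate 2. None was called in any of those fits, and 1 in each direction had an unadjusted p under 0.05. Counts in this and the lists below stand against 52.8% higher and 47.2% lower estimates over all genes, and 7.49% higher and 7.4% lower at an unadjusted p under 0.05, and no list was tested against the other genes. CSN1S1, alpha-S1-casein, held 64.7, 2146, 505.2 and 689.0 CPM at the high dose and 16717, 26729, 21.4 and 21000 CPM at the middle dose (log2 difference -4.24 ± 1.65). Replicates 1, 2 and 4 of the middle dose were above every high-dose library and replicate 3 was below them all. Without replicate 3 the difference was -4.66 ± 1.29 (edgeR adjusted p = 0.064). LALBA, alpha-lactalbumin, the regulatory subunit of lactose synthase, held 586.2, 27449, 1867 and 6021 CPM against 52751, 53964, 796.5 and 71259 CPM (-2.32 ± 1.45, and -3.98 without high-dose replicate 2). LPO, lactoperoxidase, differed by -3.02 ± 1.76. LTF, the iron-binding lactoferrin, was the member with a higher estimate. It held 3165, 1495, 289.3 and 9317 CPM against 259.3, 681.2, 194.9 and 270.4 CPM, and 3 of the 4 high-dose libraries were above every middle-dose library (3.34 ± 1.20, and 2.21 without high-dose replicate 4).

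The genes of glucose uptake and lactose synthesis showed no common direction. Of 16 genes, 10 had higher estimates, none was at an unadjusted p under 0.05, and the median log2 difference was 0.11 (0.07 without middle-dose replicate 3). SLC2A1, the main basal glucose transporter GLUT1 of the gland, held 32.8, 91.7, 82.6 and 62.6 CPM at the high dose and 76.5, 76.1, 18.2 and 75.6 CPM at the middle dose. Its difference was 0.13 ± 0.46, and -0.18 ± 0.36 without middle-dose replicate 3. HK2, a hexokinase that traps glucose in the cell, held 17.1, 14.4, 60.7 and 12 CPM against 6.94, 4.16, 23.6 and 5.30 CPM (1.34 ± 0.68). That estimate was 0.50 without high-dose replicate 3 and 2.25 ± 0.68 without middle-dose replicate 3 (edgeR adjusted p = 0.0788). B4GALT1, the catalytic subunit of lactose synthase, held 404.5, 934.9, 974.3 and 771.7 CPM against 979.1, 1207, 616.1 and 965.3 CPM, a difference of -0.29 ± 0.30 that was within the spread of the libraries.

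For 25 genes of glycolysis and gluconeogenesis the median log2 difference was 0.32, with 17 higher estimates (52.8% of all genes). At an unadjusted p under 0.05, 6 were higher and 3 lower (7.49 and 7.4% of all genes). The median was 0.50 without middle-dose replicate 3 and 0.17 without middle-dose replicate 4. TPI1, triosephosphate isomerase, held 150.9, 111.0, 178.9 and 156.3 CPM at the high dose and 92.6, 51.2, 105.1 and 64.6 CPM at the middle dose, with no overlap (0.93 ± 0.24). GAPDH, the next enzyme of the path, held 498.5, 309.0, 339.4 and 409.8 CPM against 226.6, 222.0, 319.1 and 203.1 CPM (0.68 ± 0.20). FBP1, fructose bisphosphatase of gluconeogenesis, lay below in every high-dose library, with 31.9, 23.8, 34 and 11 CPM against 47.2, 50.5, 39.7 and 52.2 CPM (-0.91 ± 0.28). PGK1, phosphoglycerate kinase, differed by 0.55 ± 0.19. In the fit without middle-dose replicate 3, edgeR called TPI1, GAPDH and ENO1 higher (adjusted p 0.0372, 0.045 and 0.0288) and PCK2 lower (0.0356). ENO1, enolase, and PCK2, the mitochondrial PEP carboxykinase, were named after their values were seen.

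The other uses of glucose carbon gave medians near that of all genes. In the pentose phosphate path, TKT, transketolase, held 461.2 to 578.1 CPM at the high dose and 568.2 to 879.1 CPM at the middle dose (log2 difference -0.63 ± 0.21), while the median of the 9 genes was -0.04. Pyruvate dehydrogenase and TCA cycle genes had a median of 0.14 over 29 genes. IDH3A, a subunit of the NAD-dependent isocitrate dehydrogenase, was higher without overlap, with 27.1, 22.7, 26.8 and 19.1 CPM against 10, 12.3, 17.1 and 10.6 CPM (0.93 ± 0.20, and 1.13 ± 0.19 without middle-dose replicate 3, edgeR adjusted p = 0.0212). SDHB, the iron-sulphur subunit of succinate dehydrogenase, was lower without overlap, with 48.0, 59.0, 53.9 and 44 CPM against 76.8, 77.7, 66.9 and 74.2 CPM (-0.53 ± 0.14). With library size alone the sign of SDHB turned (0.03), against the shift of 0.56 for all genes. Nuclear genes of oxidative phosphorylation had a median of -0.11 over 34 genes, with 12 higher, and 4 of them, among them NDUFS4 (-0.46 ± 0.20) of complex I, were lower at an unadjusted p under 0.05.

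The list of glucose-responsive genes did not move as a group. It mixes targets such as TXNIP, ARRDC4 and KLF10 with other members, among them MLXIPL, MLX, MLXIP, GFPT1, GFPT2, OGT, TXN and TXNRD1. Its median therefore does not describe such targets alone. Of 13, 7 had higher estimates and the median was 0.24 (0.12 without high-dose replicate 3). KLF10, described above, and ARRDC4, an arrestin-like protein, were higher, and ARRDC4 held 56.6, 45.8, 58.2 and 77.0 CPM against 36.8, 33.5, 46.9 and 32.2 CPM (0.67 ± 0.21). TXNIP, the thioredoxin-binding brake on glucose uptake and a standard target of glucose-sensing factors, held 695.1, 1033, 441.4 and 1827 CPM at the high dose and 1691, 1465, 815.0 and 1651 CPM at the middle dose (-0.49 ± 0.43). OGT, which attaches the sugar GlcNAc to proteins, held 510.4, 765.0, 552.2 and 533.5 CPM against 1118, 960.3, 594.5 and 1203 CPM (-0.71 ± 0.24). KLF10 and OGT were the members called without middle-dose replicate 3, OGT with -0.89 ± 0.21 (edgeR adjusted p = 0.0433).

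Estimates of milk fat genes leaned lower at the high dose, but few genes were at an unadjusted p under 0.05. Triglyceride assembly and fat globule genes had 13 of 17 lower estimates, with 1 higher and 1 lower at an unadjusted p under 0.05. Their median log2 difference was -0.63. That median was -0.97 without middle-dose replicate 3 and -0.33 without middle-dose replicate 4. MFGE8, a glycoprotein of the fat globule membrane, held 241.1, 972.7, 482.2 and 394.2 CPM at the high dose and 989.4, 2363, 511.7 and 1398 CPM at the middle dose (-1.33 ± 0.51). XDH, another globule membrane component, differed by -0.80 ± 0.42. LPIN2, a phosphatidate phosphatase, went the other way without overlap, with 58.3, 56.9, 71.2 and 56.5 CPM against 37.5, 44.7, 51.0 and 33.8 CPM (0.54 ± 0.17). Fatty acid synthesis and uptake genes had a median of -0.22 over 27 genes (-0.05 without middle-dose replicate 2), 18 of them lower. At an unadjusted p under 0.05, 0 were higher and 2 lower (7.49 and 7.4% of all genes). ACACA, acetyl-CoA carboxylase, held 129.6, 571.9, 197.2 and 226.9 CPM against 587.7, 852.6, 179.5 and 925.0 CPM (-1.18 ± 0.50). FASN, fatty acid synthase, differed by -0.67 ± 0.55, and by -0.21 without middle-dose replicate 2. ACLY, which makes cytosolic acetyl-CoA from citrate, and ACAT2, a cytosolic thiolase at the start of sterol synthesis, had the opposite sign and were named after their values were seen. Both were called higher without middle-dose replicate 3 (0.95 ± 0.21 and 1.84 ± 0.36, edgeR adjusted p 0.0407 and 0.0306). Cholesterol synthesis genes had a median of -0.08 over 24 genes, whose sign turned without any of 4 of the libraries compared and, relative to all genes, with library size alone (0.04).

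Genes of the integrated stress response and of serine and asparagine synthesis, which cells switch on through the factor ATF4 when amino acids run short, had a median log2 difference of -0.35 over 23 genes. Of these, 17 had lower estimates (47.2% of all genes), and 7 were lower and 0 higher at an unadjusted p under 0.05 (7.4 and 7.49% of all genes). The median was -0.58 without middle-dose replicate 3 and between -0.55 and -0.20 without each other library compared, and it was -0.05 in the table layout of 8 libraries alone. ATF5, a transcription factor of this response, held 23.6, 65.7, 18.2 and 23.1 CPM at the high dose and 127.9, 124.5, 12.9 and 226.0 CPM at the middle dose. PSAT1, of serine synthesis, held 86.9, 289.8, 168.5 and 85.0 CPM against 552.1, 680.7, 85.8 and 653.6 CPM. In both genes 3 middle-dose libraries stood above every high-dose library and replicate 3 stood at or below the lower high-dose values. ASNS, asparagine synthetase, held 17.3, 52.3, 30.1 and 17.7 CPM against 96.5, 174.6, 10.9 and 112.9 CPM. PYCR1, of proline synthesis, held 27.1, 56.7, 64.1 and 27.7 CPM against 153.6, 134.6, 29.2 and 164.4 CPM. With all libraries the differences were -1.91 ± 0.64 for ATF5, -1.65 ± 0.56 for PSAT1, -1.75 ± 0.61 for ASNS and -1.46 ± 0.50 for PYCR1 (edgeR adjusted p 0.254 to 0.263). Leaving out middle-dose replicate 3 gave -2.29 ± 0.40, -2.0 ± 0.39, -2.13 ± 0.37 and -1.78 ± 0.37 for these genes, and edgeR called all 4 (adjusted p 0.0221 to 0.0346). The fifth gene called was MTHFD2, of mitochondrial folate metabolism (-1.53 ± 0.22), named after its values were seen. The mean log2 CPM of the list was 4.59, 5.67, 5.55 and 4.90 at the high dose and 5.99, 6.13, 4.21 and 5.96 at the middle dose. Milk protein share was likewise lowest in middle-dose replicate 3. High-dose replicate 3, however, had a smaller share than high-dose replicate 4 (8.83 against 21.3%) and a higher list mean. The part of milk protein share in the difference was not tested.

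Amino acid transporters had a median log2 difference of -0.24 over 26 genes, -0.54 without middle-dose replicate 3, with 17 lower. SLC7A5, the light chain of the exchanger for large neutral amino acids, held 46.1, 150.7, 148.6 and 62.4 CPM at the high dose and 255.8, 348.9, 18.6 and 350.4 CPM at the middle dose (-1.26 ± 0.68, and -1.64 ± 0.42 without middle-dose replicate 3, edgeR adjusted p = 0.0525). SLC7A8, a related light chain, had the opposite sign, with 24.5, 13.3, 21.4 and 23.2 CPM against 2.78, 0.867, 16.4 and 3.87 CPM (1.72 ± 0.60). It was called higher once middle-dose replicate 3 was left out (3.05 ± 0.40, edgeR adjusted p = 0.00985). SLC6A9, a glycine transporter, was called lower in that fit (-1.21 ± 0.20, adjusted p = 0.021). SLC6A14, a transporter of broad range, held 747.2 CPM in middle-dose replicate 2 and 53.3 to 127.5 CPM in the other libraries compared. Its estimate of -1.83 ± 0.61 was -0.52 without that library.

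Branched-chain amino acid breakdown genes had a median of -0.25 over 24 genes (-0.13 without middle-dose replicate 3), and 6 were lower and 0 higher at an unadjusted p under 0.05. PPM1K, the phosphatase that activates the branched-chain ketoacid dehydrogenase, held 81.4, 136.0, 56.7 and 53.8 CPM at the high dose and 308.1, 320.9, 117.4 and 419.7 CPM at the middle dose. Its difference was -1.83 ± 0.38, and -2.09 ± 0.30 without middle-dose replicate 3 (edgeR adjusted p = 0.0139). BCKDK, the kinase with the opposing action, differed by -0.58 ± 0.19. ACAT1, a mitochondrial thiolase, was lower without overlap, with 71.1, 92.7, 95.8 and 106.4 CPM against 152.9, 126.6, 116.9 and 133.3 CPM (-0.53 ± 0.15), though with library size alone its sign turned (0.03). Arginine, proline and polyamine genes had a median of 0.30 over 14 genes (0.52 without middle-dose replicate 3, 0.12 without middle-dose replicate 2). ARG2, the mitochondrial arginase, held 4.45, 98.0, 62.3 and 44.2 CPM against 14.0, 8.5, 4.39 and 10.2 CPM. High-dose replicates 2 to 4 were above every middle-dose library and replicate 1 was among them (2.5 ± 0.66). Without middle-dose replicate 3 the difference was 2.25 ± 0.71 (edgeR adjusted p = 0.0881), and DESeq2 called it with all libraries (adjusted p = 0.0094).

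Chaperones of the endoplasmic reticulum and genes of the unfolded protein response, which handle proteins bound for secretion, had 9 genes higher and 2 lower at an unadjusted p under 0.05, out of 29 (7.49 and 7.4% of all genes). Their median of 0.22 was 0.07 without middle-dose replicate 3 and -0.01 without high-dose replicate 3. MANF, a secreted protein of this response, held 40.4, 47.5, 94.0 and 28.3 CPM at the high dose and 14.4, 20.1, 31.1 and 18.5 CPM at the middle dose (1.31 ± 0.34). HSPA5, the chaperone BiP, held 615.0, 802.3, 1467 and 473.1 CPM against 299.8, 468.3, 501.5 and 435.2 CPM (0.98 ± 0.31, and 0.56 without high-dose replicate 3). XBP1, a transcription factor of the response, held 153.3, 527.9, 1077 and 316.4 CPM against 224.7, 218.5, 198.3 and 230.4 CPM. Its middle-dose values lay close together, and its estimate of 1.25 ± 0.43 was 0.61 without high-dose replicate 3. High-dose replicate 3 was the highest library for MANF, HSPA5 and XBP1. SEL1L, of the degradation of misfolded proteins, had a lower estimate (-0.69 ± 0.23, and 0.03 with library size alone). Without middle-dose replicate 3, edgeR called MANF higher (adjusted p = 0.0407) and SEL1L lower (adjusted p = 0.0235).

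Cytosolic heat shock genes had 13 of 15 higher estimates and a median of 0.54 (0.79 without middle-dose replicate 3), and 6 were higher at an unadjusted p under 0.05. DNAJB1, a cochaperone, held 51.9, 78.3, 96.2 and 86.3 CPM at the high dose and 42.5, 37.6, 58.3 and 39.5 CPM at the middle dose (0.81 ± 0.22), and without middle-dose replicate 3 edgeR called it (0.97 ± 0.22, adjusted p = 0.0407). HSPA8, the constitutive cytosolic chaperone, held 749.7, 1155, 2614 and 920.7 CPM against 546.0, 826.6, 765.8 and 564.6 CPM (1.01 ± 0.36, and 0.48 without high-dose replicate 3). HSPH1, its nucleotide exchange factor, differed by 1.31 ± 0.44 (0.85 without high-dose replicate 3), and BAG3, another cochaperone, was higher without overlap (1.25 ± 0.47). N-glycan genes had a median of -0.08 over 28 genes. ALG1, a mannosyltransferase of the lipid-linked sugar, held 24.9, 39.2, 22.7 and 29.1 CPM against 69.2, 61.6, 37.2 and 69.5 CPM (-1.03 ± 0.23) and was called lower without middle-dose replicate 3 (-1.21 ± 0.19, edgeR adjusted p = 0.0199). MGAT2, a Golgi enzyme of complex N-glycans, was higher without overlap (1.00 ± 0.29, and 0.57 without high-dose replicate 3). Aminoacyl-tRNA synthetases (median -0.11 over 20 genes) and cytosolic ribosomal proteins (median 0.01 over 45 genes, none at an unadjusted p under 0.05) lay near all genes.

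In hormone and nutrient signalling, prolactin and STAT5 genes had a median of -0.16 over 18 genes. CISH, a STAT5 target that damps cytokine receptors, held 30.1, 87.8, 81.7 and 105.5 CPM at the high dose and 48.0, 34, 28.7 and 30.6 CPM at the middle dose (1.11 ± 0.32). SOCS3, a related inhibitor, differed by 1.54 ± 0.53 (1.01 without high-dose replicate 3), while ERBB4, a receptor of alveolar differentiation, differed by -1.14 ± 0.41. High-dose replicates 2 to 4 of CISH were above every middle-dose library. Insulin and IGF genes had a median of -0.06 over 21 genes, and IGF2, an insulin-like growth factor, was lower without overlap (19.8 to 25.6 CPM against 28.9 to 39.7 CPM, -0.54 ± 0.19, and 0.06 with library size alone). AMPK and mTOR genes had a median of -0.08 over 28 genes. CAMKK2, a kinase upstream of AMPK, was the member called lower without middle-dose replicate 3 (-1.03 ± 0.24, edgeR adjusted p = 0.0421), against -0.78 ± 0.31 with it.

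Tight junctions seal the alveoli during lactation, and their genes had a median log2 difference of -0.30 over 16 genes, 12 of them lower (47.2% of all genes). At an unadjusted p under 0.05, 6 were lower and 1 higher (7.4 and 7.49% of all genes). OCLN, occludin, held 82.8, 117.6, 72.2 and 80 CPM at the high dose and 159.3, 167.2, 111.4 and 143.2 CPM at the middle dose (-0.72 ± 0.18). PARD6B, a polarity protein, held 30.9, 34.9, 25.6 and 27.4 CPM against 45.0, 46.0, 32.3 and 48.9 CPM (-0.54 ± 0.15). Each overlapped only between high-dose replicate 2 and middle-dose replicate 3, and without the latter edgeR called both (adjusted p 0.0383 and 0.0346). TJP1, a scaffold protein of the junction, was also lower (-0.36 ± 0.14). With library size alone the signs of PARD6B and TJP1 turned (0.09 for PARD6B and 0.24 for TJP1), against the shift of 0.56 for all genes. Milk calcium and phosphate transport genes had a median of -0.15 over 16 genes. PTHRP, the parathyroid hormone-related peptide of the lactating gland, held 5.07, 14.9, 28.3 and 4.34 CPM against 44.6, 46.7, 4.75 and 98.4 CPM (-1.88 ± 0.77).

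Involution is the return of the gland from lactation, with cell death and lysosomal breakdown. Its genes had a median of 0.43 over 24 genes, 18 of them higher. That median was 0.45 without middle-dose replicate 3 and 0.27 in the table layout of 8 libraries alone. BCL2, an inhibitor of apoptosis, was higher without overlap, with 9.85, 16.5, 18.3 and 10 CPM at the high dose and 7.64, 3.64, 9.43 and 4.07 CPM at the middle dose (1.11 ± 0.38). The genes called by edgeR without middle-dose replicate 3 were BAX (1.58 ± 0.35) and BAK1 (1.05 ± 0.26), which open the mitochondrial membrane in apoptosis, and CTSB (1.16 ± 0.26), a lysosomal protease. They were named after their values were seen. BAX held 10.1, 5.8, 7.89 and 7.44 CPM against 4.17, 2.08, 8.19 and 1.43 CPM, with middle-dose replicate 3 inside the high-dose range. Lysosome genes had 21 of 25 higher estimates and a median of 0.38 (0.41 without middle-dose replicate 3, 0.58 without high-dose replicate 3). The lowest median with a library left out was 0.26, and in the table layout of 8 libraries alone it was 0.07. CTSC, a lysosomal protease, was higher without overlap (0.88 ± 0.28).

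Cell cycle genes had the clearest dependence on middle-dose replicate 3. All 30 had higher estimates, with a median log2 difference of 1.14, but 1 of them, PCNA, the sliding clamp of DNA replication, was at an unadjusted p under 0.05 (0.70 ± 0.32). The mean log2 CPM of the list was 5.24, 2.12, 4.59 and 2.81 at the high dose and 1.46, 1.54, 4.54 and 1.22 at the middle dose. High-dose replicates 1 and 3 and middle-dose replicate 3 were thus high, and the other 5 libraries were lower. Without middle-dose replicate 3 the median was 3.05 and edgeR called 8 genes higher. Without high-dose replicate 1 the median was 0.39. MKI67, the proliferation marker Ki-67, chosen after its values were seen, held 124.3, 4.77, 82.5 and 12.6 CPM against 1.94, 2.77, 63.0 and 2.85 CPM. Its difference was 1.62 ± 1.12 with all libraries and 4.49 ± 1.02 without middle-dose replicate 3 (edgeR adjusted p = 0.0407). Milk protein share was low where this list was high, at 7.48, 8.83 and 3.44% in those 3 libraries, and its part in the difference was not tested.

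Extracellular matrix (median 0.09 over 27 genes), hypoxia-responsive (-0.10 over 17) and interferon response genes (0.15 over 21) gave few or no genes at an unadjusted p under 0.05. The single gene among them was P4HA2, a collagen prolyl hydroxylase in the hypoxia list (0.57 ± 0.25). Immediate-early and injury genes, which include F3 and CCL2, had 18 of 25 higher estimates and a median of 0.37 (0.42 without middle-dose replicate 3, 0.09 without middle-dose replicate 2). PLAUR, the urokinase receptor, was higher without overlap, with 9.80, 10, 10.1 and 13.5 CPM at the high dose and 5.83, 3.64, 6.14 and 5.50 CPM at the middle dose (1.03 ± 0.26).

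**Figure D4:**
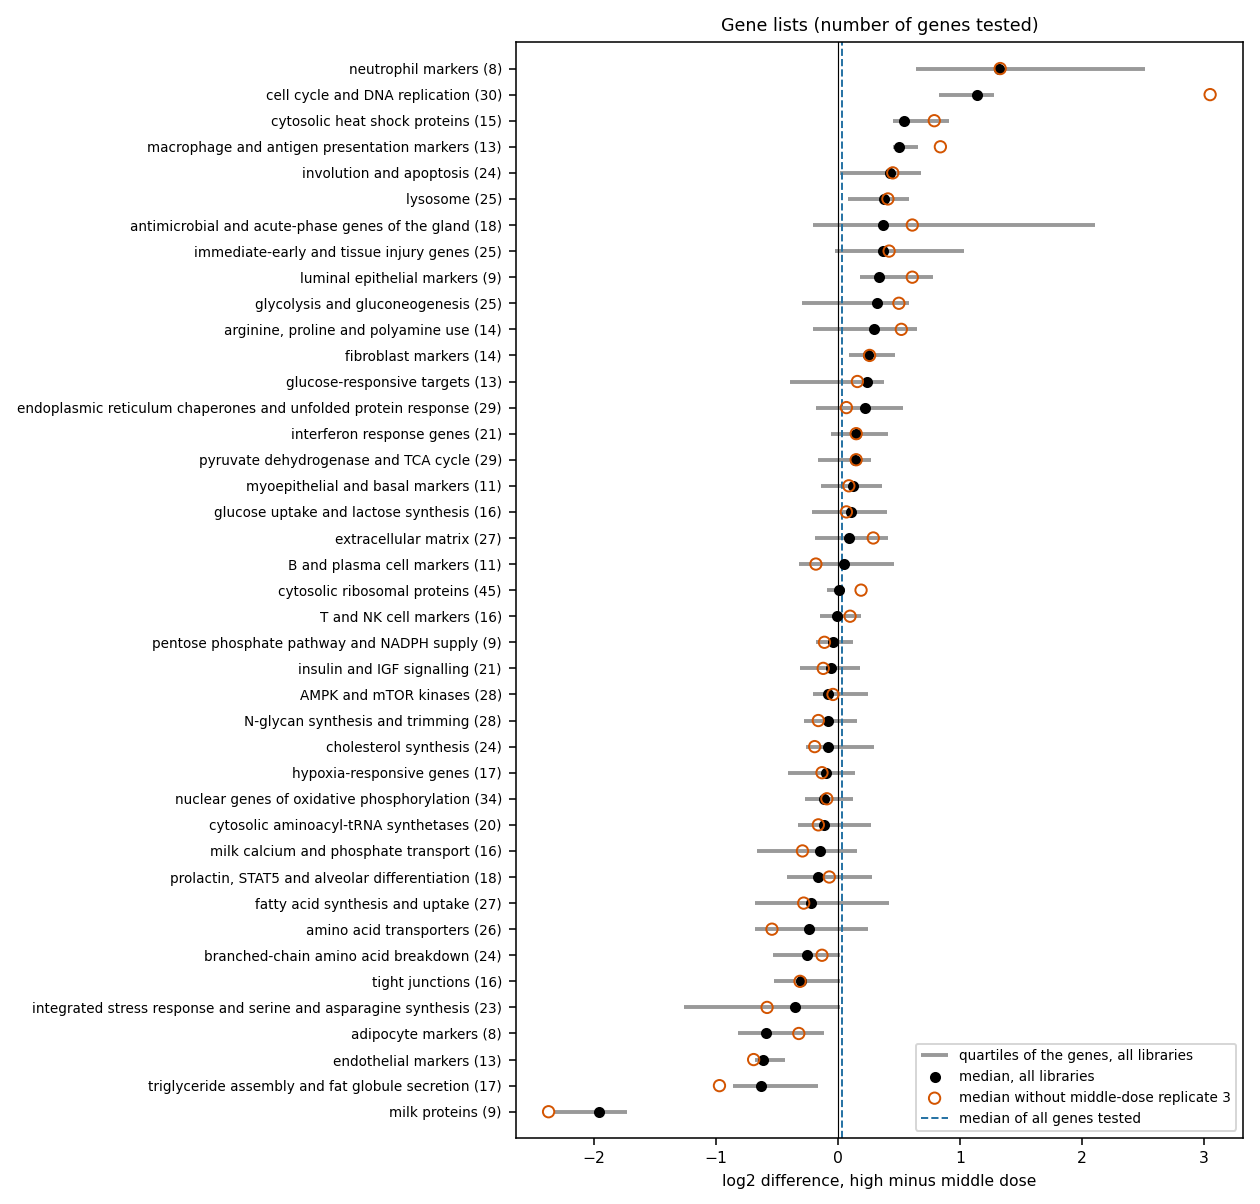
Median log2 difference, high minus middle dose, of each gene list (black points, with quartiles of its genes as grey lines) and the same without middle-dose replicate 3 (open circles). The dashed line is the median of all genes tested, 0.03. Cell cycle genes move from 1.14 to 3.05 without that library, milk proteins lie lowest at -1.96, and with library size alone all genes shift to 0.56.

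Antimicrobial and acute-phase genes of the gland had a median of 0.37 over 18 genes, 0.61 without middle-dose replicate 3 and 0.01 without high-dose replicate 4. CHI3L1, a chitinase-like protein of inflamed tissue, held 439.6, 216.5, 305.2 and 882.5 CPM at the high dose and 67.8, 57.1, 206.1 and 43.2 CPM at the middle dose, without overlap (2.30 ± 0.58). It was called by edgeR without middle-dose replicate 3 (3.04 ± 0.52, adjusted p = 0.0223). TLR4, the receptor for bacterial lipopolysaccharide, was called lower in the same fit (-1.17 ± 0.27, edgeR adjusted p = 0.0407) and was named after its values were seen. S100A9 and S100A12, calcium-binding proteins of granulocytes, were also higher without overlap. S100A12 held 5.24, 9.53, 31.5 and 5.52 CPM against 1.39, 2.25, 1.17 and 3.67 CPM (2.66 ± 0.82), and S100A9 differed by 2.5 ± 0.68. High-dose replicate 3 was the highest library for both, and without it the differences were 1.71 for S100A12 and 1.47 for S100A9. All 8 neutrophil markers tested had higher estimates, with a median of 1.32 (1.33 without middle-dose replicate 3), and 3 of those markers are also in the antimicrobial list. The neutrophil markers summed to 26.5 to 112.9 CPM at the high dose and 17.5 to 42.8 CPM at the middle dose. CSF3R, the granulocyte colony-stimulating factor receptor and the neutrophil marker with the most counts, differed by 0.08 ± 0.79 (-0.69 without high-dose replicate 3).

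Macrophage and antigen presentation markers had 12 of 13 higher estimates and a median of 0.50, or 0.84 without middle-dose replicate 3. CD68, a macrophage lysosomal protein, held 54.6, 47.8, 50.8 and 43.1 CPM at the high dose and 26.2, 20.5, 26.6 and 23.2 CPM at the middle dose, without overlap (1.02 ± 0.37). TYROBP and FCER1G, signalling adaptors of myeloid cells, differed by 0.72 ± 0.30 and 0.57 ± 0.24. CD74, the invariant chain of antigen presentation, held 773.6, 737.3, 563.5 and 1010 CPM against 474.6, 499.8, 873.1 and 357.4 CPM (0.48 ± 0.29), with middle-dose replicate 3 within the high-dose range. The list summed to 979.0 to 1632 CPM at the high dose and 619.4 to 1424 CPM at the middle dose. No marker of this list was called in the fit without middle-dose replicate 3. T and NK cell markers summed to 107.3 to 202.7 CPM and 91.4 to 214.7 CPM, with a median of -0.01 over 16 genes. B and plasma cell markers summed to 218.5 to 847.4 CPM and 298.8 to 532.1 CPM, with a median of 0.05 over 11 genes that turned to -0.37 without high-dose replicate 1.

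Endothelial markers all had lower estimates at the high dose, 13 of 13, where 47.2% of all genes did. Their median was -0.61, or -0.69 without middle-dose replicate 3, and 8 were at an unadjusted p under 0.05. EMCN, a sialomucin of capillaries and veins, held 37.7, 29.2, 37.0 and 25.2 CPM at the high dose and 46.8, 56.0, 40.9 and 60.7 CPM at the middle dose (-0.66 ± 0.17). CDH5, the adhesion protein VE-cadherin, held 72.2, 89.9, 104.1 and 88.0 CPM against 149.4, 110.1, 107.5 and 173.0 CPM (-0.61 ± 0.21). Both were without overlap, although middle-dose replicate 3 was the lowest of its dose in each. Without that library edgeR called EMCN (-0.75 ± 0.17), ESAM, an endothelial adhesion molecule (-0.92 ± 0.19), and KDR, the main receptor for VEGF (-0.99 ± 0.24), with adjusted p of 0.0412, 0.0356 and 0.048. ESAM and KDR were named after their values were seen. VWF, von Willebrand factor and the member with the most counts, held 229.1, 221.6, 181.0 and 241.2 CPM against 258.8, 239.5, 160.9 and 308.5 CPM, a difference of -0.15 ± 0.20 within the spread. The list summed to 858.0, 1091, 965.4 and 855.6 CPM against 1387, 1385, 846.6 and 1689 CPM. With library size alone the median of the list was 0.01, which lay 0.55 below that of all genes.

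Epithelial and stromal markers overlapped between the doses in their sums. Luminal markers had 8 of 9 higher estimates and a median of 0.34 (0.61 without middle-dose replicate 3, 0.13 without high-dose replicate 4). KRT7, a keratin of simple and ductal epithelium, held 306.0, 212.2, 210.8 and 434.9 CPM at the high dose and 106.2, 74.7, 195.8 and 99.0 CPM at the middle dose, without overlap (1.29 ± 0.30). It was called without middle-dose replicate 3 (1.64 ± 0.26, edgeR adjusted p = 0.0196). EHF, with 1372, 1261, 2857 and 2096 CPM against 1530, 1608, 1630 and 1929 CPM, differed by 0.18 ± 0.29, and luminal markers summed to 2256 to 3758 CPM and 2273 to 2791 CPM. Myoepithelial and basal markers had a median of 0.12 over 11 genes and sums of 1969 to 3332 CPM and 1929 to 2913 CPM. KRT14, described above, and KRT5, its keratin partner, were the members higher at an unadjusted p under 0.05. KRT5 held 1336, 347.5, 526.7 and 537.0 CPM against 212.7, 233.8, 634.8 and 169.5 CPM (1.13 ± 0.50), whereas MYH11, smooth muscle myosin, differed by -0.31 ± 0.31. Fibroblast markers had 13 of 14 higher estimates, a median of 0.25 and sums of 2812 to 10672 CPM and 2053 to 7235 CPM. Adipocyte markers had 6 of 8 lower estimates and a median of -0.59 (-0.32 without middle-dose replicate 3). Their sums were 42.4 to 67.1 CPM and 60.2 to 98.5 CPM. The sums of both lists overlapped between the doses. The parts of these cell types in the gene differences above were not tested.

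**Figure D5:**
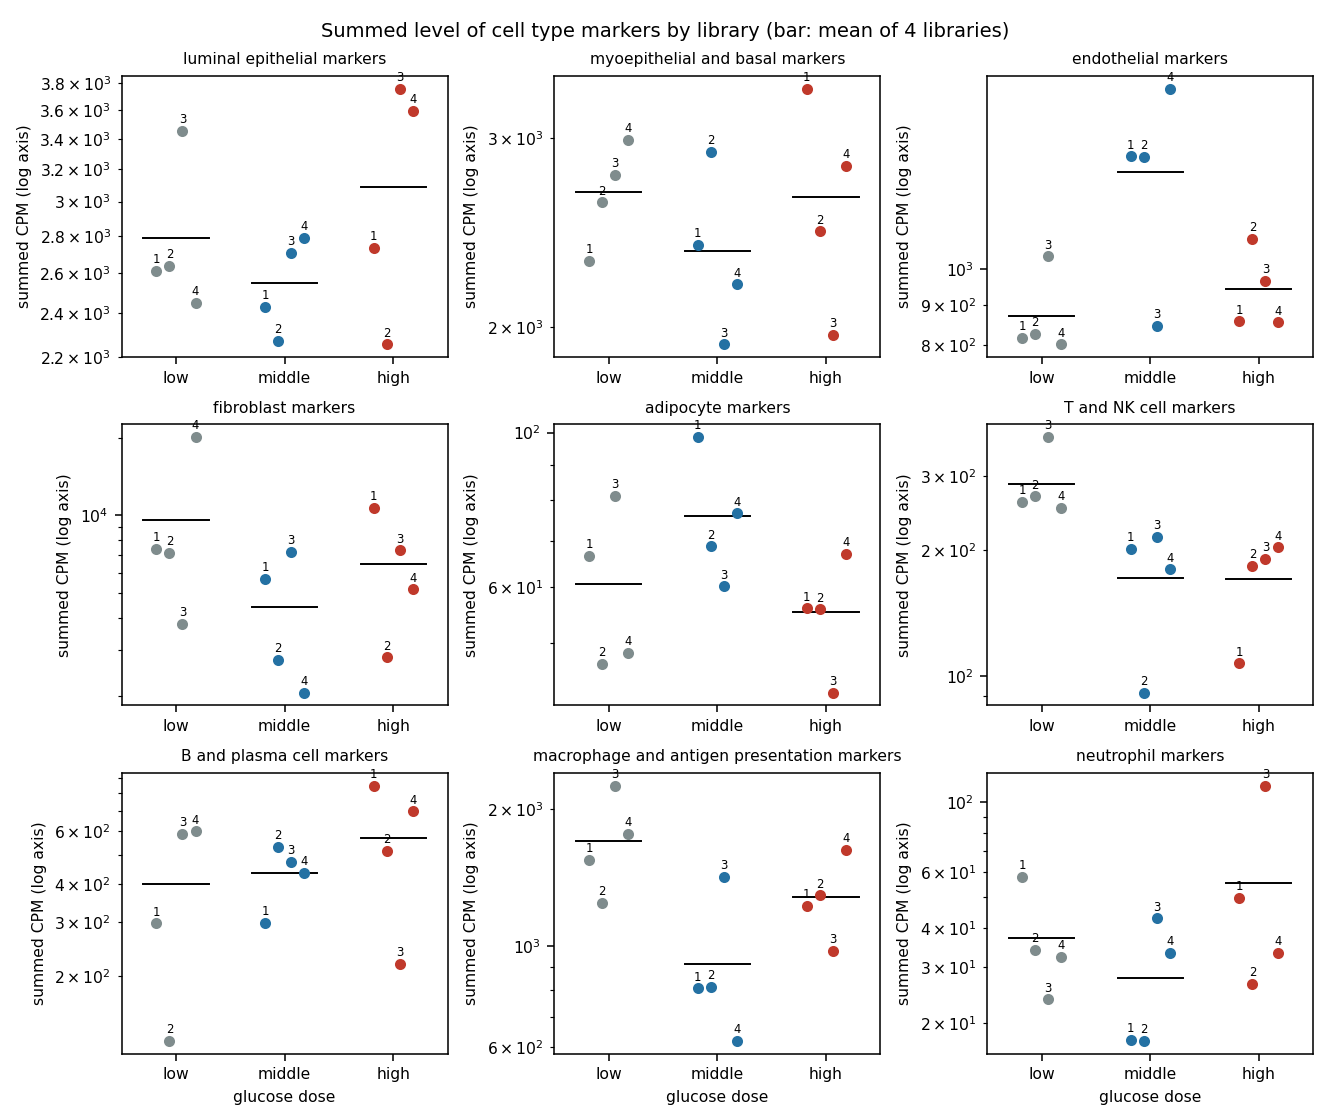
Summed CPM of the markers of 9 cell types in each library (log axis), by dose, with libraries numbered by replicate and bars at the mean of 4. Endothelial sums of 855.6 to 1091 CPM at the high dose lie below those of middle-dose replicates 1, 2 and 4, and middle-dose replicate 3 lies at 846.6 CPM.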

How the data were processed

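Per the labels' protocols, Trizol was used on mammary biopsies and TruSeq reagents on the total RNA. The authors deposited 1 table of raw read counts per gene for each of 12 libraries. Bowtie 0.12.2 and mm8, a mouse build, are named in the submitters' processing notes, whereas the tables hold goat genes. How reads were assigned to genes, and on which build, the sources used here do not say. Tables came in 2 layouts, of 16030 genes (high-dose replicates 1 and 4, middle-dose replicate 1, low-dose replicate 3) and 15991 genes (the other 8). They were joined by gene ID over 15810 shared genes. RefSeq's ARS1.2 matched 15384 IDs (97.3%), supplied 659 missing names and replaced 22 that read as dates. A sequence of the tables took the RefSeq chromosome of most of its matched genes.

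Genes with low counts were removed by filterByExpr (minimum count 10, total 15), leaving 13624 and removing 2186. edgeR 4.0.16 fitted dose on all 12 libraries with TMM factors of 0.514 to 1.5 and a quasi-likelihood F test, with Benjamini-Hochberg adjustment and a threshold of 0.05. Its common dispersion corresponded to a biological coefficient of variation of 0.363. A standard error is the log2 difference divided by the square root of F. Gene lists were described by counts and medians and given no test, and some of their members are not reported here. The fit was first tested on simulated counts, which held no outlying library such as middle-dose replicate 3. There it recovered 27.8% of 79 genes changed 2-fold, 74.6% of 59 changed 4-fold and 95% of 60 changed 8-fold. Of its 127 calls, 4 were false. Most changes of 2-fold were thus missed even in that simpler setting. Genes with the smallest p were the 12 per direction with a name and mean log2 CPM of 1 or more. In each list up to 4 members with the smallest p could be named, with the 2 highest of each marker list and 10 genes read always (SLC2A1, HK2, LALBA, B4GALT1, CSN2, FASN, TXNIP, SLC7A5, ARG2, XBP1). The comparison, lists and rules were chosen with earlier results of these data known. Alternatives were DESeq2 size factors, library size alone, milk protein genes left out, no filter, DESeq2 1.42.0, limma 3.58.1 voom with quality weights, only the 8 libraries compared, a replicate block, table layout as a term, the layout of 8 libraries alone, and each library left out. R was 4.3.3 and Python 3.11.15 with scipy 1.17.1.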

Additional observations from a re-analysis of the deposited data

Results flagged for a closer look

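Of 94 groups of 4 libraries examined, over 47 values, 7 held a library whose gap to its nearest neighbour took more of the group's range than 0.829, where chance gives about 1 in 20. At that rate, some of the 94 groups would be flagged by chance alone. Middle-dose replicate 3 was the low library in 5 of the 7. It had a milk protein share of 3.44% (52.0 to 59.0% in the other middle-dose libraries), LALBA at 796.5 CPM (52751 to 71259), CSN2 at 10326 CPM (449652 to 649149), SLC2A1 at 18.2 CPM (75.6 to 76.5) and SLC7A5 at 18.6 CPM (255.8 to 350.4). LALBA and CSN2 count towards the milk protein share, so their flags and that of the share are not independent. The T and NK cell markers summed to 107.3 CPM in high-dose replicate 1 (183.5 to 202.7 in the other high-dose libraries). PPP1R26 stood at 12 CPM in high-dose replicate 3 (20.6 to 22.9).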

How the results depend on the processing

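The count of genes called by edgeR, 0 with all libraries, was 505 without middle-dose replicate 3 and ranged from 0 to 505 over the 12 libraries left out, with 1 without low-dose replicate 4. It was 272 by the DESeq2 test and 334 by limma voom with quality weights, and 0 under every other setting tried. The count at an unadjusted p under 0.05, 2029, ranged from 1159 to 3655 with a library left out and was 3500 by voom. The count without overlap, 809, was 320 with library size alone and ranged from 922 to 3268 with a library left out, where fewer libraries have to be apart. Of 901 list medians under alternatives, 16 moved by more than the spread between libraries. By voom the median was 0.00 for glucose uptake and lactose synthesis and 0.88 for macrophage markers. In the layout of 8 libraries alone it was 0.14 for glycolysis, -0.34 for prolactin and STAT5, 0.27 for involution, 0.07 for lysosome and -0.47 for B and plasma cell markers. It was -0.17 for insulin and IGF with table layout as a term, and 0.15 for glycolysis with library size alone, relative to all genes. With a library left out, medians ranged from 0.02 to 0.22 for glucose uptake and lactose synthesis, 0.17 to 0.50 for glycolysis, 0.12 to 0.52 for arginine use, -0.23 to -0.04 for insulin and IGF, 0.01 to 0.61 for antimicrobial, 0.39 to 3.05 for cell cycle and -0.37 to 0.25 for B and plasma cell markers. The causes were not tested. Over 201 named genes, 74 of 4415 gene-setting pairs differed in sign from the reported value, and 49 genes passed the threshold without middle-dose replicate 3.

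The labels do not say whether replicate numbers pair the libraries, and the values do not settle it. Deviations of same-numbered libraries from their dose means correlated at -0.28, 0.35, 0.32 and 0.22 over genes. With the replicate block edgeR called 0 genes (smallest adjusted p 0.116) and 1821 were at an unadjusted p under 0.05. High-dose replicate 3 alone correlated best with its own number. High-dose replicates 1, 2 and 4 correlated best with middle-dose replicates 3, 4 and 1 (0.48, 0.44 and 0.36). Totals of 9555072 to 12716883 counts per library limit precision for genes under about 1 CPM.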

Other observations

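Outside the lists described, the 147 genes called by edgeR without middle-dose replicate 3, by DESeq2 and by limma voom with quality weights include several signalling and surface proteins. The following were chosen after their values were seen. RAMP2, a receptor partner for adrenomedullin with a role in vessels, held 24.5, 36.6, 34.6 and 25.1 CPM at the high dose and 104.4, 105.1, 20.7 and 93.7 CPM at the middle dose (edgeR without middle-dose replicate 3, -1.74 ± 0.17, adjusted p = 0.00394, and 0.211 with all libraries). PIK3CG, a phosphoinositide kinase subunit best known in leukocytes, held 12.8, 11.3, 12.4 and 11.1 CPM against 61.9, 74.7, 9.73 and 80.1 CPM (-2.60 ± 0.29, adjusted p = 0.00507 by edgeR in the same fit, and 0.209 with all libraries). In both genes the high-dose libraries lay close together, 3 middle-dose libraries stood above them, and middle-dose replicate 3 was below every high-dose library. AGPAT4, an acyltransferase of phospholipid synthesis, did not overlap between the doses, with 11.5, 18.5, 17.4 and 10.5 CPM against 91.0, 170.5, 22.9 and 111.7 CPM (-2.77 ± 0.60 with all libraries, edgeR adjusted p = 0.196).

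On the side higher at the high dose, PNP, purine nucleoside phosphorylase, held 24.3, 31.3, 101.8 and 64.6 CPM against 10.3, 4.86, 13.5 and 7.33 CPM (2.60 ± 0.55, adjusted p = 0.196 by edgeR). TUBA1C, an alpha-tubulin, held 168.6, 158.0, 143.7 and 152.2 CPM against 60.4, 72.8, 116.3 and 50.7 CPM (1.05 ± 0.23, adjusted p = 0.196 by edgeR), and tubulins share sequence that counting could split among family members. Their high-dose libraries all stood above every middle-dose library, with middle-dose replicate 3 the highest of its dose.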
